A study of Mus musculus with 8 samples.

Results

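Otx2, Pou3f1, Foxd3, Tcf15 and Utf1 are transcription factor and chromatin factor genes of the formative epiblast, and they were followed here in mouse embryonic stem (ES) cells of 2 genotypes, with and without leukemia inhibitory factor (LIF). Members were all probe sets of the array whose only gene symbol in the platform's annotation was one of these 5 names, which gave 8 of 45101 probe sets. Otx2, Foxd3 and Tcf15 had 1 probe set each, Pou3f1 had 2 and Utf1 had 3. The 5 genes were among 18193 genes measured and 10916 genes bright enough to be tested. The rule matched gene names and used no intensity, but the 5 names were chosen with earlier results of these data known. Their ranks and counts beside all genes therefore describe them and are no independent test.

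The series holds 8 Affymetrix mouse genome arrays in 4 groups of 2. Rbp2f/f and Rbp2-/- ES cells were each sampled in medium with LIF and again 6 days after it was removed. By the field's convention f/f denotes an allele flanked by recombination sites, and -/- its loss on both chromosomes; no other allele or agent is named for any group. RBP2 was read as the retinoblastoma-binding histone demethylase now named Kdm5a, which removes methyl groups from lysine 4 of histone H3. The labels call the samples of a group biological replicates but do not say from which clones or cultures they came, so any p-value reflects only how these particular samples varied, in part perhaps for technical reasons, and a difference between clones and a difference between genotypes cannot be told apart.

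Mouse ES cells kept with LIF sit near the naive state of the early epiblast. On leaving it, cells go through a formative state in which naive genes are switched off and the cells become able to form the germ layers. OTX2 is a homeodomain protein that redirects POU5F1 (OCT4) to new enhancers during that transition, and POU3F1 (OCT6) is a POU-domain protein of the epiblast and early neural plate. FOXD3 is a forkhead factor needed to maintain the epiblast and later the neural crest. TCF15 is a basic helix-loop-helix factor that is held in check by ID proteins in naive cells, marks ES cells primed to differentiate and later acts in the paraxial mesoderm. UTF1 is a chromatin-bound protein of pluripotent cells and the germ line whose gene is a target of POU5F1 and SOX2.

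Promoter sequence was available for 3 of the 5 genes, from RefSeq on build GRCm38.p6. It is shown because the letters CCGCCC, which the DNA-binding domain of KDM5A is known to prefer and which are also part of the GC box, can be looked for in it. Each line gives the 250 bases before the annotated start, 5′ to 3′ on the gene's strand, with CCGCCC or its reverse complement GGGCGG in capitals. Foxd3 lies at chr4:99656049-99656298 on the plus strand, Utf1 at chr7:139943606-139943855 on the plus strand, and the most upstream of 4 annotated Otx2 starts at chr14:48667645-48667894 on the minus strand.
Utf1: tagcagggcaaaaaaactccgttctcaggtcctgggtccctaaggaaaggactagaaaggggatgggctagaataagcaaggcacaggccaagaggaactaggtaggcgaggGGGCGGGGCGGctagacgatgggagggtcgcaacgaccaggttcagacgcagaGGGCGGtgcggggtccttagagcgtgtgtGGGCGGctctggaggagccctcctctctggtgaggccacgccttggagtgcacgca
Foxd3: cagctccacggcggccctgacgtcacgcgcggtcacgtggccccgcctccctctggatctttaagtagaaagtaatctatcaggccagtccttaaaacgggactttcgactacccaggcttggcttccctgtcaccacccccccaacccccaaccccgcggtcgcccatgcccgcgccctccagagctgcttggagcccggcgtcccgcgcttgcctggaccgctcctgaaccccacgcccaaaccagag
Otx2: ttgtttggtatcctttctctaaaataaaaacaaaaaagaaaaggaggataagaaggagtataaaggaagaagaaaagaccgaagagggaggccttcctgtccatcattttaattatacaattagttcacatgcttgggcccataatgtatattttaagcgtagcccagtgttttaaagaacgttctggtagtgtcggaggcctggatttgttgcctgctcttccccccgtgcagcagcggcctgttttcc
The Utf1 window held 4 matches, of which the first pair in the sequence overlap. No match was found in the Foxd3 window or in any of the 4 Otx2 windows. Over 32851 promoter windows of the same length, 32.7% held at least 1 match on either strand. The Foxd3 window held 21 CG dinucleotides, the Utf1 window 14 and the most upstream Otx2 window 6, against a median of 6 over all windows. The other Otx2 windows held 8, 14 and 9. A match of letters describes the sequence and says nothing about binding in these cells.

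The deposited values are probe set intensities on a linear scale in arbitrary units. Median intensity per array ranged from 15.7 to 24.6. Replicate 2 of Rbp2-/- with LIF stood apart, with a trimmed mean of 77.5 that was 65.5% of the mean of the others, so each fitted difference is given relative to the median difference of all genes tested, and again after quantile normalisation. That all-gene median was -0.28 on the log2 scale for the genotype difference with LIF and 0.02 for that without LIF. It was 0.07 for LIF withdrawal in Rbp2f/f cells, 0.39 in Rbp2-/- cells and 0.31 for the contrast of these withdrawal effects. Differences are on the log2(intensity + 16) scale, which understates the change of dim probe sets, and each adjusted p belongs to the difference before the median was subtracted. The targeted gene, Kdm5a, read 128.2 and 167.2 on the Rbp2f/f arrays against 31.2 and 30.6 on the Rbp2-/- arrays when LIF was present. When it was absent the readings were 225.7 and 246.6 against 100 and 80.2. The limma adjusted p was 0.0219 with LIF and 0.0909 without. After quantile normalisation it was 0.0714 and 0.114, so Kdm5a then passed the test in neither medium. No source used here says whether the probe set lies in the deleted part of the gene. All 12 naive pluripotency genes on a marker list were measured, with a summed intensity of 6347.1 to 10312 on the arrays with LIF and 1907.8 to 2634.6 on those without.

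The members followed a pair of patterns across the groups. By group mean, Otx2 and Pou3f1 were brightest in Rbp2f/f cells, with or without LIF, and dim in Rbp2-/- cells with LIF, although no genotype difference passed the test. Pou3f1 was also low in Rbp2-/- without LIF, while Otx2 reached 129.9 on an array of that group, within the range of Rbp2f/f. Foxd3, Tcf15 and Utf1 were bright with LIF and fell in both genotypes when it was removed. Foxd3 and Tcf15 were also lower in Rbp2-/- than in Rbp2f/f with LIF. All arrays measure mixtures of cells, so fewer cells expressing a factor and less RNA per cell cannot be told apart.

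**Figure D1:**
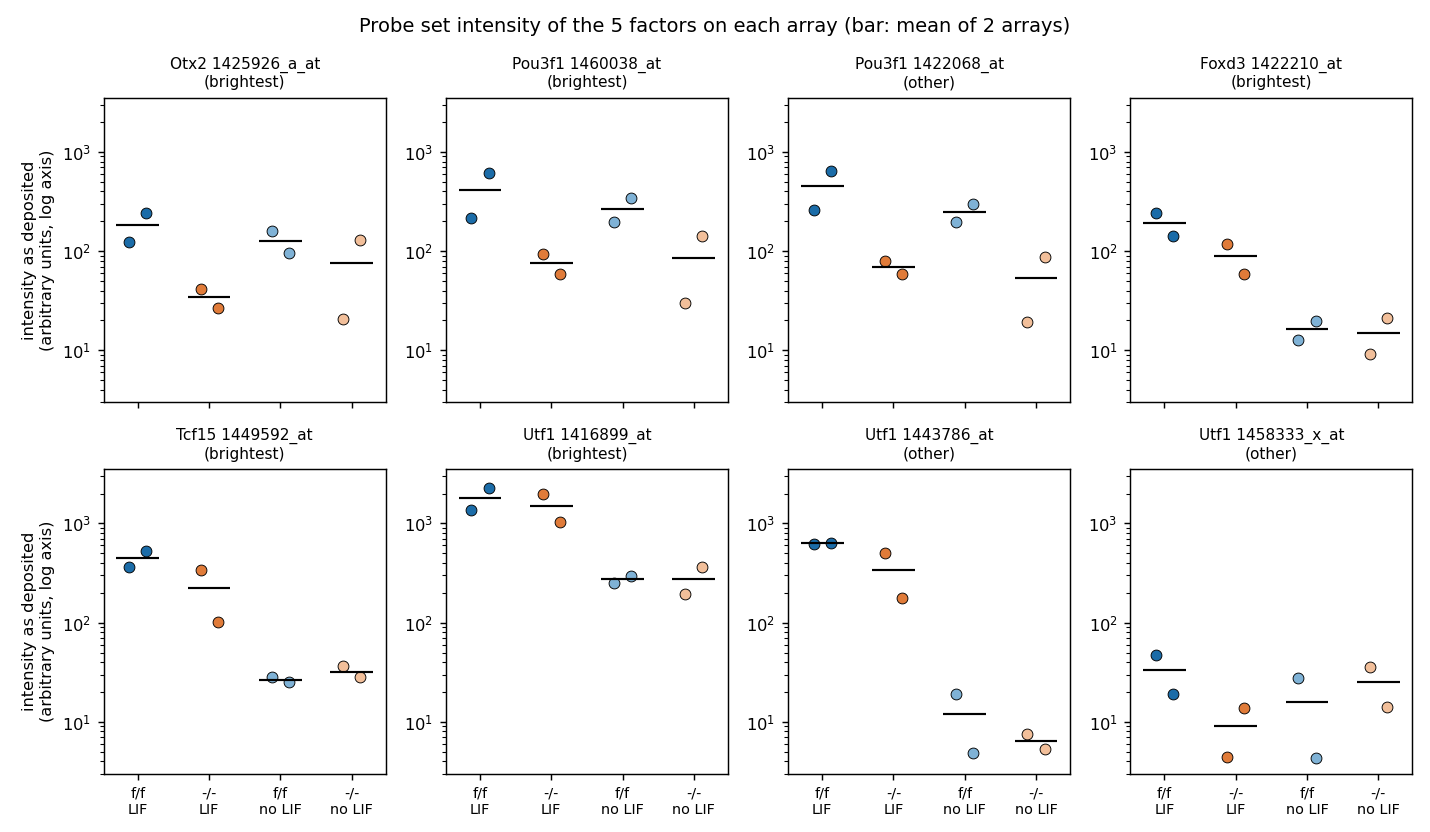
Intensity of the 8 member probe sets as deposited (arbitrary units, log axis), with 1 point per array and a bar at the mean of the 2 arrays of each group; f/f is Rbp2f/f and -/- is Rbp2-/-. Otx2 and both Pou3f1 probe sets were lower on both Rbp2-/- arrays with LIF than on both Rbp2f/f arrays with LIF, and Foxd3, Tcf15 and the 2 bright Utf1 probe sets were lower on every array without LIF than on every array with it.

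Otx2 read 122.9 and 240.1 on the Rbp2f/f arrays with LIF, against 41.9 and 26.7 on the Rbp2-/- arrays. Without LIF, Rbp2f/f read 158.8 and 95.4 and Rbp2-/- read 20.9 and 129.9. The Rbp2f/f values with and without LIF overlapped, both Rbp2-/- arrays with LIF lay below all Rbp2f/f arrays, and the Rbp2-/- arrays without LIF lay far apart, with the lowest value of all 8 arrays on replicate 1. The group means were 182 ± 82.9 (SD, n = 2), 34.3 ± 10.7, 127 ± 44.8 and 75.4 ± 77.1 in that order. The mean in Rbp2-/- with LIF was thus 18.9% of that in Rbp2f/f, and 22.7% after quantile normalisation.

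Pou3f1 was measured by 2 probe sets, which gave a like picture. The brighter, 1460038_at, read 215 and 617.2 on the Rbp2f/f arrays with LIF, against 93.2 and 58.7 on the Rbp2-/- arrays. After LIF was removed, Rbp2f/f read 194.4 and 341.6 and Rbp2-/- read 29.9 and 141.2. Every Rbp2-/- array therefore lay below every Rbp2f/f array for this probe set, and within each genotype the values with and without LIF overlapped. The other probe set, 1422068_at, read 261 and 637.6 on the Rbp2f/f arrays with LIF, against 79.7 and 59 on the Rbp2-/- arrays. On the arrays without LIF, Rbp2f/f read 195.3 and 300.3 and Rbp2-/- read 19.2 and 87.8. It separated the genotypes in the same way. With LIF, the mean in Rbp2-/- was 18.3% of that in Rbp2f/f by the first probe set and 15.4% by the second, and without LIF it was 31.9% and 21.6%.

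Foxd3 read 244.8 and 140.8 on the Rbp2f/f arrays with LIF, against 119.2 and 58.6 on the Rbp2-/- arrays. Once LIF was withdrawn, Rbp2f/f read 12.7 and 19.8 and Rbp2-/- read 9.2 and 21. On all arrays without LIF it was below the median intensity of the array, and on all with LIF it was well above it. With LIF, the Rbp2-/- arrays lay below the Rbp2f/f arrays, and without LIF the genotypes overlapped. The readings without LIF are too dim to give the size of the fall.

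Tcf15 read 363.6 and 525.2 on the Rbp2f/f arrays with LIF, against 342.4 and 101.7 on the Rbp2-/- arrays. In medium lacking LIF, Rbp2f/f read 28.1 and 25.2 and Rbp2-/- read 36.2 and 28. The lowest array with LIF was replicate 2 of Rbp2-/-, the array that was dim as a whole, and it was still above every array without LIF. Replicate 1 of that group was just below the lower Rbp2f/f array. The readings without LIF were close to the intensity of 28.3 below which genes were not tested, so they too give the fall only roughly.

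Utf1 was measured by 3 probe sets. The brightest, 1416899_at, read 1374.4 and 2264.9 on the Rbp2f/f arrays with LIF, against 1980.4 and 1044.1 on the Rbp2-/- arrays. After LIF was removed, Rbp2f/f read 252.9 and 292.5 and Rbp2-/- read 193.3 and 360.6. The genotypes overlapped in both media, and all arrays without LIF were below all arrays with it. Probe set 1443786_at read 623.8 and 631.1 on the Rbp2f/f arrays with LIF, against 505.7 and 176.9 on the Rbp2-/- arrays. In the absence of LIF, Rbp2f/f read 19.3 and 4.9 and Rbp2-/- read 7.6 and 5.3. Its arrays without LIF were all below the median intensity of the array, so it gives the direction of the fall and not its size. By the brightest probe set, mean intensity after withdrawal was 15.0% of that with LIF in Rbp2f/f and 18.3% in Rbp2-/-. The third, 1458333_x_at, was dim on all arrays, from 4.3 to 47.1, and did not follow the others: its values with and without LIF overlapped in Rbp2f/f, and in Rbp2-/- both were higher without LIF.

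The first comparison asks how loss of Rbp2 altered the factors in undifferentiated cells. With LIF, the log2 difference Rbp2-/- minus Rbp2f/f was -1.64 ± 0.49 (SE) for Otx2 and -1.80 ± 0.52 for Pou3f1 relative to the all-gene median, but neither passed the test (limma adjusted p = 0.107 and 0.098). Only 9 of the 10916 genes tested had a lower difference than Otx2 and 5 a lower one than Pou3f1. Foxd3, at -0.73 ± 0.35, and Tcf15, at -0.86 ± 0.39, lay below the median with a limma adjusted p of 0.188 for each. Utf1 was at -0.01 ± 0.36 (limma adjusted p = 0.682), and its 95% interval before the median was subtracted ran from -1.06 to 0.47. Of the 5 members 0 were called, against 28 genes, or 0.257% of all genes tested. By the probe set standing for each gene, the arrays of the genotypes did not overlap, with Rbp2-/- lower, for 4 of the 5 members. The exception was Utf1. The same held for 39.2% of all genes tested, and for 21.6% after quantile normalisation, where the members' count was again 4. The Utf1 probe sets disagreed: 1443786_at and the dim 1458333_x_at did not overlap with LIF, with Rbp2-/- lower. For 1443786_at the difference was -1.02 before the median was subtracted (limma adjusted p = 0.467 over all 45101 probe sets). As the mean of its probe sets Utf1 was at -0.75, also before subtraction (limma adjusted p = 0.278).

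Which of these differences passed the test depended on single arrays. After quantile normalisation the differences were -1.74 for Otx2, -1.78 for Pou3f1, -0.74 for Foxd3, -0.83 for Tcf15 and 0.07 for Utf1, with limma adjusted p of 0.226, 0.236, 0.353, 0.349 and 0.930; at that setting 0 genes, or 0%, were called, while 1426 had an unadjusted p under 0.05, against 1931 for the values as deposited. Before the median was subtracted, the Otx2 difference was -1.92 on all arrays and -1.70 without the dim array, and that of Pou3f1 was -2.08 and -1.81 (limma adjusted p = 0.377 and 0.373 without it). The difference of Tcf15 moved from -1.14 to -0.34 without the dim array, and that of Foxd3 from -1.01 to -0.58. Leaving out replicate 1 of that group instead gave -1.95 for Tcf15 and -1.44 for Foxd3, which then passed the test (limma adjusted p = 0.0140 and 0.0337), and the number of genes called rose to 2447. Leaving out any 1 of the 4 arrays without LIF, which are no part of this difference but share its error estimate, brought Otx2 to a limma adjusted p between 0.0207 and 0.0471 and Pou3f1 to one between 0.0376 and 0.0392.

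**Figure D2:**
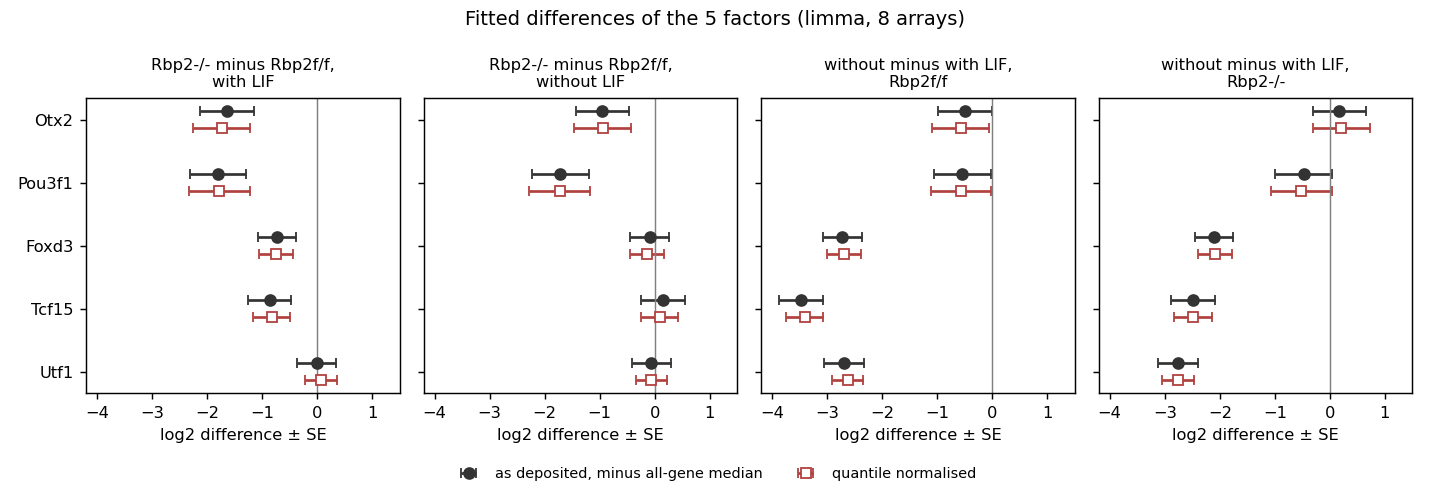
Fitted log2 difference with its standard error (limma, 8 arrays) for each factor in 4 comparisons; filled circles are values as deposited minus the all-gene median and open squares are quantile-normalised values. Otx2 and Pou3f1 lie left of 0 in both genotype panels, at -1.64 and -1.80 with LIF, and the circles of Foxd3, Tcf15 and Utf1 lie between -3.48 and -2.11 in the withdrawal panels.

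The genotype comparison was repeated after 6 days without LIF. Pou3f1 was again low in Rbp2-/-, at -1.71 ± 0.52 relative to the all-gene median, and had 20 genes below it (limma adjusted p = 0.222). Otx2 was at -0.95 ± 0.49 (limma adjusted p = 0.578). Foxd3, Tcf15 and Utf1 were at -0.09, 0.15 and -0.06, with limma adjusted p of 0.977, 0.944 and 0.991. Thus 0 of 5 members were called, beside 3 genes or 0.0275% of all genes tested, and limma gave an unadjusted p under 0.05 for 1099 genes. Pou3f1 alone had genotypes that did not overlap, with Rbp2-/- lower, as did 23% of all genes tested.

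The Rbp2-/- arrays without LIF differed from each other in both of these genes. Replicate 1 had 20.9 for Otx2 and 29.9 for the brighter Pou3f1 probe set, and replicate 2 had 129.9 and 141.2. The split was not confined to these genes. All 18 formative epiblast genes and all 7 tested primitive streak genes of the lists below read lower in replicate 1. Nodal, for instance, read 89.6 and 538, and Mixl1 139 and 1145.8. Replicate 2 was also the brighter array as a whole, with a trimmed mean of 128.4 against 117.2. Replicate 1 also had the highest summed intensity of the 9 measured feeder fibroblast markers, 3774.5, against 1423.2 in replicate 2 and 1600.5 to 1687 in Rbp2f/f without LIF; with LIF the sum was 366.9 to 802, and no marker was at 0 on any array. That rank rested on Col1a1, which read 2811.2 on that array: without it the sum of the other 8 was 963.3 in replicate 1, 707.1 in replicate 2 and 1061.2 to 1171.8 in Rbp2f/f. Of the 9 markers 6 were higher and 3 lower in replicate 1 than in replicate 2. The part of such cells in the difference was not tested. Without replicate 2, Otx2 and Pou3f1 were called (limma adjusted p = 0.0283 and 0.0165, with differences of -1.92 and -2.58). Without replicate 1, the differences were 0.06 and -0.80 and neither was called.

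**Figure D3:**
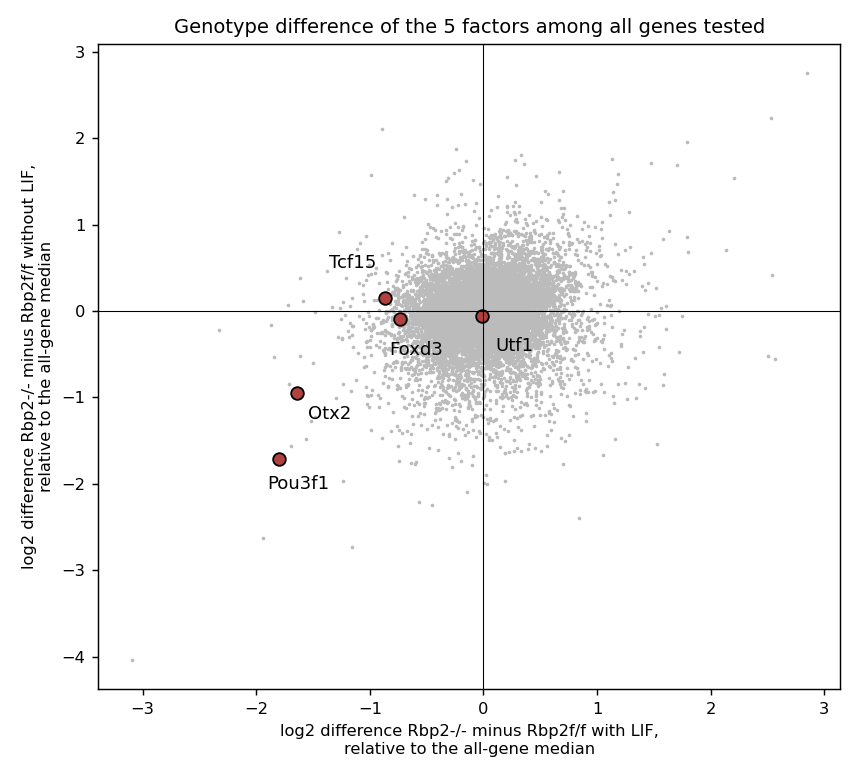
Each grey point is 1 of the 10916 genes tested, placed by its log2 difference Rbp2-/- minus Rbp2f/f with LIF (horizontal) and without LIF (vertical), each relative to the all-gene median; the 5 factors are marked. Pou3f1 lies low on both axes (-1.80 and -1.71), Otx2 at -1.64 and -0.95, Foxd3 at -0.73 and -0.09, and Tcf15 at -0.86 and 0.15. Utf1, by its brightest probe set, lies near 0 on both.

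The second question is how the factors responded to removal of LIF, which lets ES cells differentiate. In Rbp2f/f cells Foxd3 fell by 2.72 ± 0.35 on the log2 scale relative to the all-gene median, Tcf15 by 3.48 ± 0.39 and Utf1 by 2.69 ± 0.36 (limma adjusted p = 0.00013, 5.28e-05 and 0.000178). Few of the genes tested had lower differences: 41 lay below Foxd3, 7 below Tcf15 and 46 below Utf1. Otx2 was at -0.50 ± 0.49 and Pou3f1 at -0.55 ± 0.52 (limma adjusted p = 0.577 and 0.558). The 95% intervals before the median was subtracted ran from -1.47 to 0.60 and from -1.58 to 0.62, so a rise or a fall of moderate size in these genes was not detectable with 2 arrays a group. In all, 3 of 5 members were called lower and 0 higher, beside 6.97% of all genes tested called lower and 20.4% called in either direction. After quantile normalisation the same 3 were called lower, beside 1422 of the 10916 genes tested, against 761 for the values as deposited. The same 3 members had arrays that did not overlap, as did 30% of all genes tested in that direction.

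In Rbp2-/- cells the same 3 members fell, Foxd3 by 2.11 ± 0.35, Tcf15 by 2.49 ± 0.39 and Utf1 by 2.76 ± 0.36 (limma adjusted p = 0.00346, 0.00213 and 0.000502). All genes called lower made up 3.33% of those tested, or 8.17% after quantile normalisation, where the same 3 members were called, and again 3 of 5 had arrays that did not overlap, as did 7.7% of all genes tested in that direction before that normalisation. Genes called in either direction made up 23% of those tested. Pou3f1 was at -0.48 ± 0.52 and Otx2 at 0.17 ± 0.49 (limma adjusted p = 0.916 and 0.416). The fall of Tcf15 was the most dependent on an array: before the median was subtracted it was -2.10 on all arrays, -2.90 without the dim replicate 2 with LIF and -1.30 without replicate 1 with LIF, and the test was passed each time (limma adjusted p = 0.000665 and 0.00993). Otx2 was called higher after withdrawal when replicate 1 without LIF was left out (1.55, limma adjusted p = 0.0255), and was at -0.43 without replicate 2.

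The withdrawal effects of the genotypes were then compared directly. The difference, Rbp2-/- minus Rbp2f/f, was 1.00 ± 0.56 for Tcf15, 0.63 ± 0.49 for Foxd3, -0.05 ± 0.51 for Utf1, 0.69 ± 0.69 for Otx2 and 0.08 ± 0.73 for Pou3f1, each relative to the all-gene median. None of the 5 was called (limma adjusted p = 0.411, 0.461, 0.844, 0.550 and 0.831), and 0 of all genes tested were called, or 0%, with 1266 at an unadjusted p under 0.05 (1220 after quantile normalisation, also with 0 called). Mean Tcf15 intensity was 222 ± 170 (SD, n = 2) in Rbp2-/- and 444 ± 114 in Rbp2f/f before withdrawal, and 32.1 ± 5.80 and 26.7 ± 2.05 after it. Leaving out 1 array gave Tcf15 differences from 0.51 to 2.11 before the median was subtracted. The highest came without replicate 1 of Rbp2-/- with LIF, which leaves only the dim array in that group. All 5 comparisons draw on the same 4 groups, so they are not independent of each other.

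Other genes of the formative state gave a mixed picture. Of 18 such genes, all tested, limma called 5 higher and 6 lower on withdrawal in Rbp2f/f. Those that rose were Lef1, a Wnt effector (1.30 ± 0.33), Sox4 (1.13 ± 0.32), Tead2 (0.94 ± 0.29), the ephrin receptor Epha4 (1.37 ± 0.28) and the tight junction gene Cldn6 (1.40 ± 0.43). Those that fell were the de novo DNA methyltransferases Dnmt3a (-1.67 ± 0.37) and Dnmt3b (-2.12 ± 0.30), Zic5 (-1.79 ± 0.43), the ETS factor Etv5 (-1.90 ± 0.37), the Nodal co-receptor Tdgf1 (-2.02 ± 0.54) and Sox3 (-1.11 ± 0.30). The background in Rbp2f/f was 13.4% of all genes called higher and 6.97% lower, and in Rbp2-/- 19.7% and 3.33%. In Rbp2-/- the calls were 3 higher, Lef1, Tead2 and Epha4, and 4 lower, Dnmt3b, Etv4, Etv5 and Tdgf1; after quantile normalisation they were 1 higher and 5 lower. The list's median difference was -0.71 in Rbp2f/f and -0.43 in Rbp2-/-, with that of all genes set at 0.

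By genotype, 0 of the 18 formative genes were called in either medium. With LIF, 15 of 18 lay below the all-gene median and the list's median was -0.39; without LIF it was 14 of 18 and -0.33. Fgf5, the usual marker of the formative and primed epiblast, is named here after its values were seen. It read 29.7 and 91.4 on the Rbp2f/f arrays with LIF, against 0.9 and 19.7 on the Rbp2-/- arrays. After LIF was removed, Rbp2f/f read 129 and 150.7 and Rbp2-/- read 1.7 and 76.8. The Rbp2-/- arrays were below the Rbp2f/f arrays in each medium, and the difference without LIF was -1.96 ± 0.59 (limma adjusted p = 0.223). Dnmt3b read 3757.5 and 4392 against 2042.3 and 1480.4 with LIF, a difference of -0.94 ± 0.30 (limma adjusted p = 0.098). Etv4 went the other way, with 278.7 and 203.1 against 787.8 and 451.5, a difference of 1.55 ± 0.34 (limma adjusted p = 0.120).

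**Figure D4:**
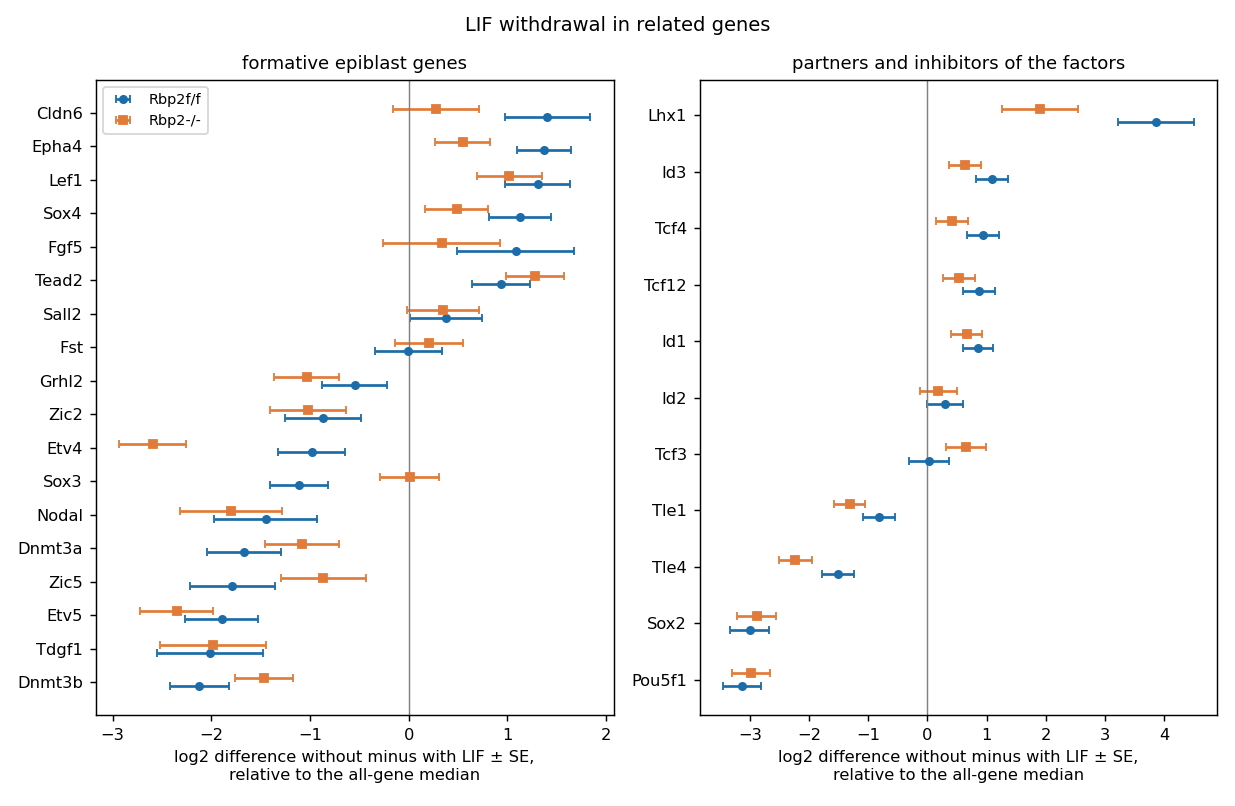
Log2 difference without minus with LIF, with its standard error, relative to the all-gene median, for 18 formative epiblast genes (left) and 11 partners and inhibitors of the factors (right); circles are Rbp2f/f and squares Rbp2-/-. Dnmt3b, Etv5 and Tdgf1 lie left of 0 in both genotypes on the left, and Pou5f1 and Sox2 lie near -3 on the right.

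Partners and inhibitors of the factors were the third group. Pou5f1, the partner of OTX2 and an activator of Utf1, fell by 3.13 ± 0.32 in Rbp2f/f and by 2.98 ± 0.32 in Rbp2-/- (limma adjusted p = 2.8e-05 and 0.000113). Sox2, which binds with it, fell from a mean intensity of 3375 ± 93.1 (SD, n = 2) to 428 ± 17.7 in Rbp2f/f and from 1761 ± 1010 to 273 ± 38.8 in Rbp2-/-. The Groucho-type co-repressor Tle4 fell by 1.51 ± 0.28 and 2.23 ± 0.28. Id1 and Id3, which encode inhibitors of basic helix-loop-helix proteins such as TCF15, rose in Rbp2f/f by 0.86 ± 0.26 and 1.09 ± 0.27, and so did the E-protein genes Tcf4 (0.94 ± 0.27) and Tcf12 (0.87 ± 0.27) and the homeobox gene Lhx1 (3.86 ± 0.64). The counts were 5 higher and 3 lower of 11 in Rbp2f/f. In Rbp2-/- they were 6 higher (those 5 and Tcf3) and 4 lower (Tle1 with the 3 above), but after quantile normalisation 0 higher and 4 lower, where 7.36% of all genes tested were called higher. By genotype 0 of 11 were called in either medium.

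Lists of the tissues in which the factors later act gave few tested genes for some; the counts stand beside the same 13.4% of all genes called higher and 6.97% lower in Rbp2f/f, and 19.7% and 3.33% in Rbp2-/-. Of 12 anterior neuroectoderm genes only 3 were tested; Hesx1 and Olig2 fell in Rbp2f/f and Olig2 in Rbp2-/-, and Olig2 was also the only list gene called by genotype with LIF (-1.48 ± 0.34, limma adjusted p = 0.0497). After quantile normalisation that Olig2 p was 0.169. Of 5 tested neural crest genes Snai2, Ets1 and Msx1 rose in both genotypes and 0 fell. Among 3 tested paraxial mesoderm genes, Foxc1 rose in Rbp2f/f and Msgn1 in Rbp2-/-. All 7 tested primitive streak genes were called higher in Rbp2f/f (Eomes, Mixl1, Mesp1, Gsc, Fgf8, Wnt3 and Evx1), and 4 (Mixl1, Fgf8, Wnt3 and Evx1) in Rbp2-/-. After quantile normalisation 1 was called higher in Rbp2-/-, beside 7.36% of all genes tested. All 7 lay above the all-gene median in both genotypes. The Rbp2-/- arrays without LIF lay far apart for some, with 139 and 1145.8 for Mixl1 and 116.3 and 795.3 for Eomes. When the withdrawal effects were compared directly, all 7 lay below the all-gene median and 0 were called. The levels before withdrawal enter this contrast. With LIF, all 7 genotype differences, Rbp2-/- minus Rbp2f/f, lay above the all-gene median, with a list median of 0.91. Without LIF 5 of 7 lay below it, with a list median of -0.49, and 0 were called by genotype in either medium. Of the 12 naive genes 10 fell in Rbp2f/f and 11 in Rbp2-/-, and Tbx3 rose in both.

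Markers of other cells moved with withdrawal as well. Called higher in Rbp2f/f and Rbp2-/- were 6 and 4 of 7 tested feeder fibroblast markers, 5 and 5 of 6 extraembryonic endoderm markers and 4 and 3 of 8 trophoblast markers, of which Tfap2c fell in both. Of all genes tested 13.4% and 19.7% were called higher. After quantile normalisation the counts in Rbp2-/- were 2 feeder, 3 extraembryonic endoderm and 2 trophoblast markers, beside 7.36% of all genes. The summed extraembryonic endoderm markers were 725.5 to 1338.6 with LIF and 2305.6 to 3322.3 without. The summed trophoblast markers were 2244.4 to 4795.8 and 8155.4 to 9598.8. None of either list was at 0. Most of each sum came from 1 gene on every array, Col4a1 (417.1 to 2595.5) for the first and Krt8 (1439.2 to 7539.1) for the second. Amn, Afp, Ttr, Sox7, Elf5 and Tpbpa were too dim to test. The part of other cells in the falls of Foxd3, Tcf15 and Utf1 was not tested.

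Close relatives of the factors were mostly too dim to test. Otx1, Pou3f2, Pou3f3, Pou3f4, Foxd1, Foxd2, Foxd4 and Scx reached at most 33.3 on any array. Crx, a relative of Otx2, was tested and read 20.4 to 46.8, with 0 calls in any comparison.

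Across the 8 arrays the members fell into the same 2 sets by the likeness of their quantile-normalised log2 values. These correlations describe the 4 groups and share their arrays, so they carry no test. Otx2 and Pou3f1 had a Pearson r of 0.88 (Spearman rho 0.83). Foxd3 and Tcf15 had a Pearson r of 0.96, Foxd3 and Utf1 0.93, and Tcf15 and Utf1 0.95, while all pairs across the sets lay between 0.19 and 0.39. By rank the sets were less sharply apart. Spearman rho for those 3 pairs was 0.76, 0.83 and 0.69, and across the sets it was 0.21 to 0.50. The tested gene most like Otx2 was Kctd12b (r = 0.96), followed by Rragd, Hnrnpa0, Atp13a3 and Sema3e, and the gene most like Pou3f1 was Tspan5 (r = 0.98), followed by Atp13a3, Sema3e, Zfp934 and Ppm1l. Atp13a3 and Sema3e were thus on both lists. Foxd3 was most like Gpd2 (r = 0.99), then Taf5l, Ppm1b, Cyb5r1 and Cars2, and Tcf15 most like Gstm1 (r = 0.99), then Pdcd2, Plekhg5, Zfp979 and Dna2. Utf1 was most like Atic and Pou5f1 (r = 0.99 for each), then Fmn2, Eps8 and Surf2.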

How the data were processed

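The authors deposited 1 intensity per probe set and array on a linear scale; no source used here names the software, background correction or scaling. Per the labels' protocols, 6 ug of total RNA per sample was turned into biotinylated cRNA. The platform annotation gave 34945 probe sets 1 symbol, 932 several and 9224 none, 64 manufacturer controls among them; only the first kind was named. The brightest probe set on average stood for its gene, and genes below the 40th percentile of mean intensity (28.3) were not tested. Values were log2(intensity + 16). The values of all 8 arrays entered limma 3.58.1 (R 4.3.3), which fitted a mean for each of the 4 groups, after a check on simulated data. Settings were lmFit, eBayes with trend, two-sided tests and Benjamini-Hochberg over 10916 genes, with genes called at an adjusted p under 0.05. The number of arrays limits the precision. Alternatives were quantile normalisation, median centring, pseudocounts of 4 and 64, other filters and probe set rules, array weights, no trend, a threshold of 0.01, a replicate block and leaving out each array. Named were all member probe sets, the 5 most similar genes of each member, and called list genes, otherwise those with the smallest p. A list of relatives also held Zscan10, which is no relative of the factors and fell on withdrawal in both genotypes. Members and lists were chosen with earlier results of these data known.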

Additional observations from a re-analysis of the deposited data

How the results depend on the processing

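The 3 falls on LIF withdrawal (Foxd3, Tcf15 and Utf1) kept their direction and their call in both genotypes under every alternative run. The exception was Foxd3, which was not tested with a filter at the 60th percentile. Some alternatives, listed at the end of this section, cannot alter a fitted difference, so under them only the call was open to change. With LIF the 0 members called by genotype became 2, Otx2 and Pou3f1, with the replicate number as a block (limma adjusted p = 0.0233 and 0.00677), and 0 to 2 when 1 array was left out. Without LIF they became 1, Pou3f1, with array weights (limma adjusted p = 0.0438) and 1, Pou3f1 again, with the replicate block (0.0228), and 0 to 2 without 1 array; the interaction gave 0 to 1. Shared replicate numbers do not establish a pairing here: deviations of same-numbered arrays correlated at 0.25 to 0.27 in 3 of 6 pairs of groups and at -0.07 to -0.00075 in the other 3, and the block changed no other member's call.

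Values that changed sign, before the all-gene median was subtracted, were as follows. With LIF, Utf1 was 0.072 after quantile normalisation, and -0.75 to 0.16 without 1 array. Without LIF, Utf1 was 0.032 as the mean of its probe sets and -0.46 to 0.39 without 1 array, Foxd3 was -0.35 to 0.21 and Otx2 -1.92 to 0.064. On withdrawal in Rbp2f/f, Otx2 ranged from -0.88 to 0.0067 and Pou3f1 from -1.21 to 0.25, and in Rbp2-/-, Pou3f1 from -0.98 to 0.80 and Otx2 from -0.43 to 1.55. In the interaction Utf1 was -0.13 after quantile normalisation and -0.20 to 0.71 without 1 array, and Pou3f1 -0.50 to 1.28. The Otx2 ends at -1.92 and 1.55 were called, as stated with those comparisons.

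Counts of all genes called depended strongly on the settings. The main count was 28 with LIF and the alternatives gave 0 to 2447; 3 without LIF and 0 to 487; 2226 for withdrawal in Rbp2f/f and 889 to 3705; 2512 in Rbp2-/- and 1000 to 4515; and 0 for the interaction and 0 to 1430. Of the alternative values for single members, 457 kept direction and side of the threshold, 18 passed it anew and 20 changed sign. Many of the 457 could not change direction. Other filters, no trend, array weights, testing every probe set, the stricter threshold and the replicate block left each fitted difference at its main value. So did leaving out an array outside the groups compared. Such settings could alter only the adjusted p or the call, so the 457 is no measure of how stable the directions are. Of the alternative counts of members called, 90 stayed within 1.5 times the main count and 10 did not. The cause of these shifts was not tested.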
